A study of Mus musculus with 20 samples.

Results

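The genes described here are 32 enzymes and regulators of cholesterol and fatty acid synthesis, followed in CD8+ T cells taken from tumours after PD-1 blockade, a PD-L1 and 4-1BB bispecific antibody, or both. They were chosen by name. All 32 were among the 45777 gene symbols of the expression table, and the 28 with at least 1 FPKM in 5 or more libraries were tested. FPKM counts sequenced fragments relative to gene length and to the size of the library, so genes of different length share 1 scale. By role, 7 act on the route from acetyl-CoA to farnesyl diphosphate, 11 from squalene synthesis onward, 6 sense sterol or regulate the route, 3 serve the liver X receptor (LXR) and sterol efflux, and 5 make fatty acids.

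Each of the 20 libraries came from CD8+ T cells sorted out of MC38 tumours 4 days after treatment. MC38 is a mouse colon carcinoma line, here made to express human PD-L1, and the tumours averaged 150 to 200 mm3 when treatment groups were drawn. All hosts, controls included, were C57BL/6 mice with human PD-1, human PD-L1 and human 4-1BB. The 4 groups of 5 libraries were Control, Pembrolizumab (an antibody to PD-1), ABL503 (the bispecific antibody) and ABL503+pembrolizumab, called the Combination below. The control agent, the doses and the age of the mice are not given in the sources used here. Whether libraries within a group stem from different mice is not stated either, and p-values then measure only the spread between these samples, which may be technical.

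Cholesterol is built in the cytosol and endoplasmic reticulum from acetyl-CoA by way of mevalonate, farnesyl diphosphate and squalene. When membrane sterol is low, the protein SCAP carries the SREBP transcription factors to the Golgi for cleavage, and the freed fragments switch on most enzymes of the route. When sterol is high, the INSIG proteins hold SCAP back, and oxysterols activate LXR, which induces efflux pumps. T cells raise lipid synthesis when they are activated, since dividing cells need membrane.

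Markers of the sorted cells were high in each library. The summed FPKM of the 5 T-cell markers (Cd8a, Cd8b1, Cd3e, Cd3d, Cd3g) ran from 2373 to 4364 in Control, 3553 to 4238 in Pembrolizumab, 2857 to 3646 after ABL503 and 3507 to 4800 in the Combination. The medians were 3337, 3707, 3128 and 4021 in the same order, so ABL503 had the lowest. Each of the 2 CD4 T-cell, 3 B-cell and 4 fibroblast markers averaged under 1 FPKM in every group. The 4 epithelial genes that MC38 cells could bring (Epcam, Krt8, Krt18, Krt20) summed to 3.24 to 8.55 FPKM in Control, 3.81 to 9.03 in Pembrolizumab, 5.28 to 9.88 after ABL503 and 2.38 to 3.83 in the Combination. Epcam made up most of this sum, and it was lower in the Combination than in Control (-0.86, SE 0.26, adjusted p = 0.0339) and ABL503 (-1.17, SE 0.26, adjusted p = 0.0128). Krt18, the other epithelial gene tested, did not follow: it averaged 0.924 FPKM in Control, 1.36 in Pembrolizumab, 1.58 after ABL503 and 1.06 in the Combination. Krt8 averaged under 1 FPKM in each group, and Krt20 was at 0 throughout. Of 10 macrophage and monocyte markers, 5 were testable. Without Ly6c2, which effector CD8+ T cells also express, the other 9 summed to 14.1 to 104 FPKM in Control, 24.3 to 65.4 in Pembrolizumab, 24.5 to 58.7 after ABL503 and 19.5 to 32.4 in the Combination. Ly6c2 itself averaged 1989 FPKM in Control, 2482 in Pembrolizumab, 1432 after ABL503 and 3054 in the Combination. It was called higher in the Combination than in Control (log2 change 0.63) and ABL503 (log2 change 1.09). The defining macrophage genes Csf1r, Adgre1 and Mrc1 averaged under 1 FPKM in each group, but other genes of the list did not. Cd68 averaged 18.9 FPKM in Control, 24.3 in Pembrolizumab, 23.02 after ABL503 and 19.7 in the Combination. Lyz2 averaged 18.8, 13.3, 17.2 and 3.402 in the same order, and was highest in Control 3 (64.9). C1qb and C1qc were also highest in Control 3 (13.1 and 3.72). The 8 markers of antigen-presenting cells did not move as 1 group. Of them, the 4 MHC class II genes (Cd74, H2-Aa, H2-Ab1, H2-Eb1) summed to 132 to 444 FPKM in Control, 36.1 to 150.5 in Pembrolizumab, 100.1 to 274 after ABL503 and 28.0 to 55.8 in the Combination, which lay below every Control and ABL503 library. Of the other 4, Zbtb46 was higher in the Combination than in Control (6.33 ± 1.90 against 3.31 ± 1.24 FPKM, adjusted p = 0.0256). It averaged 6.84 ± 0.968 after ABL503 alone and 2.14 ± 0.905 in Pembrolizumab. For ABL503 against Control, 0 of the 7 tested markers of this list passed. For Pembrolizumab against Control 1 was called higher and 1 lower. Xcr1 had the largest rise there (log2 change 0.61), at 4.36 ± 0.549 FPKM against 2.52 ± 0.299, without overlap between the groups. In the Combination against Control, Xcr1 (3.69 ± 0.895 against 2.52 ± 0.299) and Itgax (2.31 ± 1.41 against 2.42 ± 1.18) did not pass. Flt3 averaged under 1 in each group. Control 1 and ABL503 3 had the lowest array weights (0.513 and 0.589, limma's estimate of a library's reliability) and the smallest column sums, so results that change without them are given both ways.

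Levels of the members spanned a wide range. Over the 20 libraries Ebp, the sterol isomerase (49.1 FPKM), and Fdps, which makes farnesyl diphosphate (47.3 FPKM), were highest. After them came the late desaturase Sc5d (26.9), the methyl oxidase Msmo1 (24.3) and phosphomevalonate kinase, Pmvk (22.8). The master regulators were modest: Srebf2, the SREBP that governs cholesterol synthesis, averaged 4.04 FPKM, its escort Scap 3.84, and Srebf1, the SREBP more tied to fatty acids, 4.89. Of the negative regulators, Insig1 averaged 8.45 and Insig2 6.32. The fatty acid branch was low apart from Acly, the citrate lyase that supplies cytosolic acetyl-CoA (13.7). Fasn, fatty acid synthase, averaged 1.78 FPKM. The 4 members that were too low to test were the cyclase Lss (0.751), acetyl-CoA carboxylase, Acaca (0.527), the efflux pump Abca1 (0.0737) and the desaturase Scd1 (0.0588). Scd1 lay between 0 and 0.350 in every library, whereas its relative Scd2 lay between 2.001 and 5.06.

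The summed level of the route to cholesterol stood highest after ABL503 alone. The FPKM of the 18 enzymes listed here summed to 242 ± 23.9 in Control, 228 ± 25.5 in Pembrolizumab, 313 ± 19.8 after ABL503 and 263 ± 43.9 in the Combination (SD, n = 5, as for every mean). Abundant genes weigh most in such a sum. Fdps averaged 40.2 FPKM in Control and 70.8 after ABL503, and Idi1 10.3 and 20.6. All 5 ABL503 libraries, at 291 to 339, lay above all Control libraries (219.5 to 276) and all Pembrolizumab libraries (207 to 269), while the Combination ran from 231 to 339. Of the 17 route enzymes tested, ABL503 had the highest group mean in 12 (70.6%) and the lowest in 2, Mvk and Tm7sf2 (11.8%). Pembrolizumab had the lowest in 10 (58.8%). Over all 11794 genes tested, the same shares were 21.7%, 18.8% and 24.2%. These are bulk libraries, in which fewer cells of a type and less RNA per cell cannot be told apart.

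**Figure D1:**
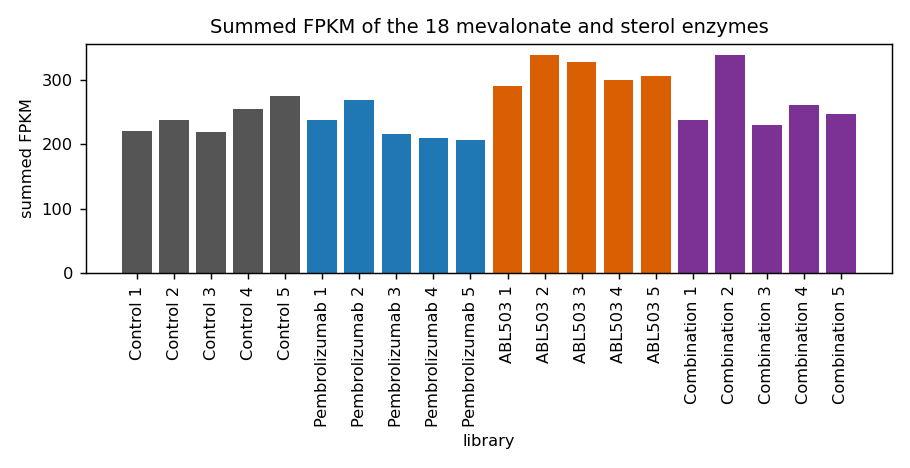
Summed FPKM (y axis) of the 18 mevalonate and sterol enzymes in each of the 20 libraries (x axis), coloured by group. The 5 ABL503 bars lie between 291 and 339, above every Control and Pembrolizumab bar, and Combination 2, at 339, stands apart from the other Combination libraries.

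The first comparison, ABL503 with Control, isolates the bispecific antibody. Idi1, which isomerises isopentenyl diphosphate into the reactive partner for chain building (chr13:8885606-8892396 on GRCm38.p6, as for all positions), was the member that rose. Its values in FPKM were 8.26, 11.02, 10.2, 8.84 and 13.0 in Control and 20.4, 20.1, 27.7, 17.2 and 17.4 in ABL503. Every ABL503 library lay above every Control library, with means of 10.3 ± 1.88 and 20.6 ± 4.27 (log2 change 0.93, SE 0.20, adjusted p = 0.0318, limma). That made 1 of 28 members higher and 0 lower, where 0.585% of all tested genes were called higher, 0.0339% lower and 0.619% either way. In that comparison 8 of 28 members had an unadjusted p under 0.05, as did 1292 of the 11794 genes tested.

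Fdps, the next enzyme along, followed the same order without passing. Its FPKM were 30.1, 45.7, 39.1, 44.0 and 41.8 in Control and 58.5, 78.1, 78.4, 66.6 and 72.4 in ABL503, with no overlap between the groups (log2 change 0.81, SE 0.24, adjusted p = 0.166). Scd2, a stearoyl-CoA desaturase that makes monounsaturated fatty acids, gave 3.57, 3.18, 3.08, 3.78 and 2.94 FPKM in Control against 3.98, 5.04, 5.02, 4.14 and 5.06 in ABL503, again with no overlap (log2 change 0.39, SE 0.12, adjusted p = 0.181). Idi1, Fdps and Scd2 were the 3 members of 28 whose ABL503 libraries all lay above Control. Of all tested genes 1.7% did so, and 0.89% lay wholly below, as 0 members did. Other enzymes had smaller estimates that did not pass: Msmo1 gave 0.47, SE 0.15, adjusted p = 0.219, Cyp51, the lanosterol demethylase, 0.38, SE 0.16, adjusted p = 0.378, and Hmgcs1, the synthase at the head of the route, 0.34, SE 0.16, adjusted p = 0.441.

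The steps of the route were described together by their medians. After ABL503 the 7 genes of the early route had a median log2 change of 0.26 and the 10 tested later enzymes one of 0.29, with 5 of 7 and 9 of 10 above 0. All 28 tested members had a median of 0.09, with 21 above 0, and all genes tested one of -0.01, with 48.6% above 0. Regulators did not pass: the 6 sensing genes had a median of 0.06, Srebf2 gave 0.05, SE 0.14, adjusted p = 0.924 and Insig1, itself a known SREBP target, 0.08, SE 0.18, adjusted p = 0.916.

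The call on Idi1 was fragile. It ended when any 1 of 8 libraries was left out, namely Control 1, 2, 3 or 4 or ABL503 1, 2, 3 or 5 (adjusted p 0.0534 to 0.102). Without Control 1 and ABL503 3 together it gave 0.76, adjusted p = 0.219, and without the filter on low genes 0.93, adjusted p = 0.108. ABL503 3 held the highest Idi1 value of its group and the group's highest value in 6 of the 17 route enzymes. The proliferation genes, 8 in all, had a median change of 0.14 after ABL503, with 0 called.

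**Figure D2:**
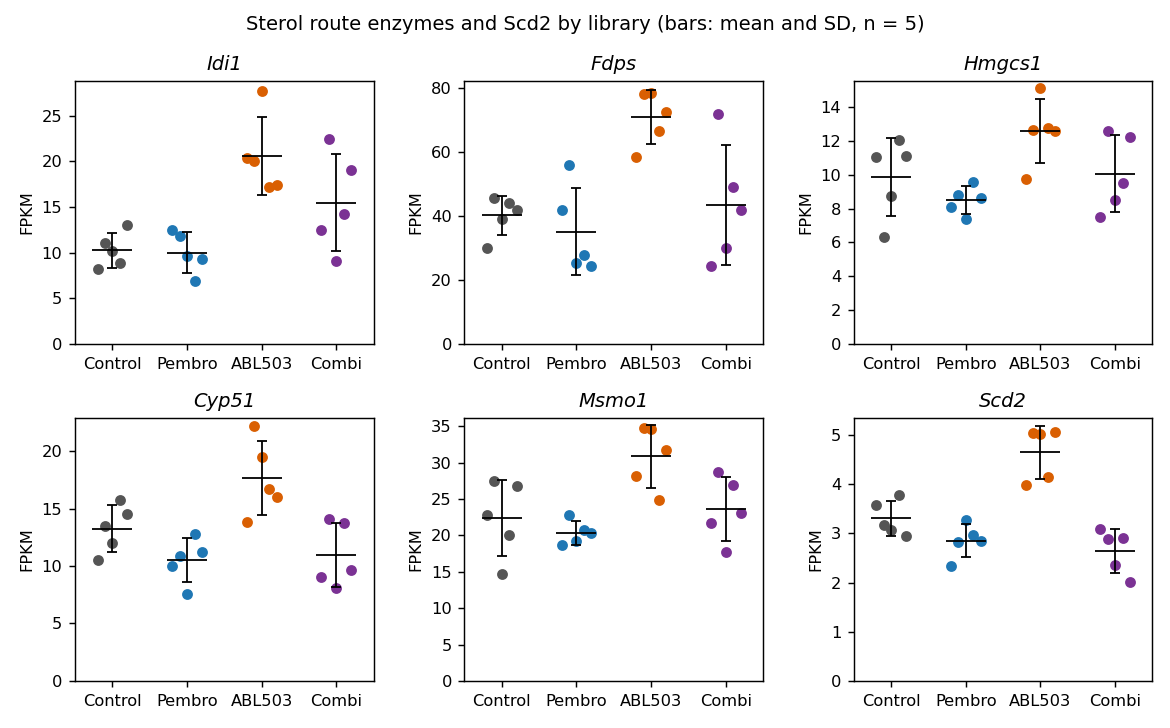
FPKM (y axis, from 0) of Idi1, Fdps, Hmgcs1, Cyp51, Msmo1 and Scd2 in the 4 groups (x axis), 1 point per library with the mean and SD. In each panel the 5 ABL503 points lie above all 5 Pembrolizumab points, and Combination points spread widely for Idi1 (9.05 to 22.4) and Fdps (24.3 to 71.9).

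The promoters of 4 enzymes whose ABL503 libraries all lay above the Pembrolizumab ones are shown because SREBP and its partner NF-Y act close to the start site of such genes. The sequences are RefSeq's, the 250 bases before the start, on GRCm38.p6. Capitals mark TCACNCCAC, a form of the sterol regulatory element, and CCAAT, the NF-Y box, on either strand, so a box on the other strand reads ATTGG.
Hmgcs1 (chr13:119690101-119690350, plus strand): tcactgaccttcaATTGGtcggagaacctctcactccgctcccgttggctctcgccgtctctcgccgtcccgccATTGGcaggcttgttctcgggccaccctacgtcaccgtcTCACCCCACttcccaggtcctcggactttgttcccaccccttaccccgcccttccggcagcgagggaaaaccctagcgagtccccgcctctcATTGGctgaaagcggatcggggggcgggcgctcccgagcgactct
Idi1 (chr13:8885356-8885605, plus strand): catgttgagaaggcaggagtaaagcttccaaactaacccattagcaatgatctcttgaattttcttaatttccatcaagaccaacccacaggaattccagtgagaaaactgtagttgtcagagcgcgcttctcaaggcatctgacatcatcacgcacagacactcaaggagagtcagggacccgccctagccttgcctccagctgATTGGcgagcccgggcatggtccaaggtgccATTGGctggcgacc
Cyp51 (chr5:4104698-4104947, minus strand): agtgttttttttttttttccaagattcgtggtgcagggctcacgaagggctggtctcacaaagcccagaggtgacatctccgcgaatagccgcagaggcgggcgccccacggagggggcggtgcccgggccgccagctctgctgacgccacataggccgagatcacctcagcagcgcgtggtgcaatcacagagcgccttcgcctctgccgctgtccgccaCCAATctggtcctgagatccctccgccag
Msmo1 (chr8:64733579-64733828, minus strand): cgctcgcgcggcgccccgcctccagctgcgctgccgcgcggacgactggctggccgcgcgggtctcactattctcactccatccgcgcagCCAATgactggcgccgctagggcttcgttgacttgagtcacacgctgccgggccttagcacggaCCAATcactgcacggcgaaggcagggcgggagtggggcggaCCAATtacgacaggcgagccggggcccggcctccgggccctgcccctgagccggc
In these stretches Hmgcs1 carried 1 TCACNCCAC and 3 CCAAT boxes, Idi1 2 CCAAT boxes, Cyp51 1 and Msmo1 3. Mvk and Tm7sf2, the route enzymes with their lowest mean after ABL503, carried 5 and 1 CCAAT boxes in the same stretch and 0 TCACNCCAC. The boxes were thus not particular to the enzymes shown. Promoters were found for 25 of the 32 members; Fdps, Fdft1, Sqle, Stard4, Abcg1, Scd1 and Scd2 had no entry. In the full 300-base windows, which add 50 bases after the start, CCAAT occurred in 20 of the 25 members and in 37.4% of all 32851 promoters. The GC box GGGCGG occurred in 21 of the 25 and in 35.7%, TCACNCCAC in 1 of the 25 and in 1.24%. The LXR element, a direct repeat of AGGTCA with 4 bases between, occurred in 0 of the 25 and in 0.0152%. None of these motifs contains another, both strands were searched, and a member with several start sites counted as carrying a motif if any of its windows did. The shares over all promoters count each window by itself. The 25 members had 33 windows, so their counts are not on the same basis as these shares and stand higher for it. These matches are letters in a window and not measured binding.

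ABL503 against Pembrolizumab set the single agents side by side. Here 4 members were higher in ABL503 and 0 lower, of 28, where 0.865% of all tested genes were called higher, 0.415% lower and 1.28% either way. Idi1 averaged 10.0 ± 2.23 FPKM in Pembrolizumab, from libraries at 12.5, 11.9, 9.60, 6.87 and 9.28, and the ABL503 values above exceeded all of these (log2 change 0.97, SE 0.20, adjusted p = 0.018). Fdps (chr3:89093588-89101967) stood at 41.8, 55.8, 25.4, 27.8 and 24.4 in Pembrolizumab, so that ABL503, at 58.5 to 78.4, was again above every library (log2 change 1.06, SE 0.24, adjusted p = 0.034). Pembrolizumab 1 and 2 were the high pair and the other 3 libraries lay below every Control library.

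Cyp51 (chr5:4080674-4104697) gave 9.99, 10.9, 7.58, 12.8 and 11.2 FPKM in Pembrolizumab and 13.9, 22.2, 19.5, 16.7 and 16.0 in ABL503. The lowest ABL503 library exceeded the highest Pembrolizumab library (log2 change 0.70, SE 0.16, adjusted p = 0.0382). Scd2 (chr19:44293676-44306864) gave 2.34, 2.82, 3.28, 2.97 and 2.85 in Pembrolizumab, all below ABL503 (log2 change 0.55, SE 0.12, adjusted p = 0.0234). Hmgcs1 (7.40 to 9.59 against 9.76 to 15.1) and Msmo1 (18.6 to 22.8 against 24.9 to 34.8) did not overlap either. Hmgcs1 gave 0.51, SE 0.16, adjusted p = 0.134, and Msmo1 gave 0.57, SE 0.15, adjusted p = 0.0685. That made 6 members of 28 without overlap, all higher in ABL503, where 2.55% of all tested genes lay wholly above and 1.18% wholly below. The 10 tested later enzymes had a median of 0.30, the 7 early ones 0.27 and all genes tested 0.02.

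These calls too were lost when various libraries were left out one at a time. Cyp51 lost its call without any 1 of ABL503 2, 3, 4 or 5 or Pembrolizumab 1, 2, 3 or 5 (adjusted p 0.0579 to 0.111), and Fdps without ABL503 2, 3, 4 or 5 or Pembrolizumab 3, 4 or 5 (0.0622 to 0.0876). Scd2 lost it without ABL503 2, 3 or 5 or Pembrolizumab 1 (0.063 to 0.078), and Idi1 without ABL503 2, ABL503 3 or Pembrolizumab 4 (0.0502 to 0.059). The changes themselves moved little. Without Control 1 and ABL503 3, where 0 members passed, Idi1 gave 0.86, adjusted p = 0.0584, Fdps 1.02, adjusted p = 0.0813, Cyp51 0.66, adjusted p = 0.0956 and Scd2 0.53, adjusted p = 0.0644. Without the filter Idi1 gave 0.97, adjusted p = 0.0603, Fdps 1.06, adjusted p = 0.108 and Cyp51 0.70, adjusted p = 0.0952. Cyp51 also missed with quantile normalization (0.68, adjusted p = 0.0533) and with the 2 groups fitted alone (0.70, adjusted p = 0.052), as did Scd2 with the latter (0.55, adjusted p = 0.0594). With the replicate number as a block Scd2 gave 0.55, adjusted p = 0.0501. The number of members called fell to 0 without ABL503 2 and without ABL503 3, to 1 without ABL503 5, and to 2 without ABL503 4 or Pembrolizumab 1, 3, 4 or 5.

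Some of these genes share sequence or place with others, which an FPKM table cannot resolve. In the GENCODE M21 models of GRCm38, 26.7% of the exonic bases of Fdps also belong to Gm43738 on the same strand. For Tm7sf2, 12.1% also belong to Vps51 (mean 6.97 FPKM) on the same strand. On the opposite strand Cyp51 shares 3.76% with Akap9 (mean 3.42 FPKM), Fdft1, squalene synthase, 18.3% with the highly expressed protease gene Ctsb (77.9 FPKM), and Idi1 9.22% with Gm48574. Hmgcs1 shares 12.1% with Gm48342 and Scap 13.2% with 5830462I19Rik, also on the opposite strand. The sources used here do not say whether reads were counted by strand. Idi2, the near copy of Idi1, averaged 0.287 FPKM in Control and 0.952 in ABL503.

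**Figure D3:**
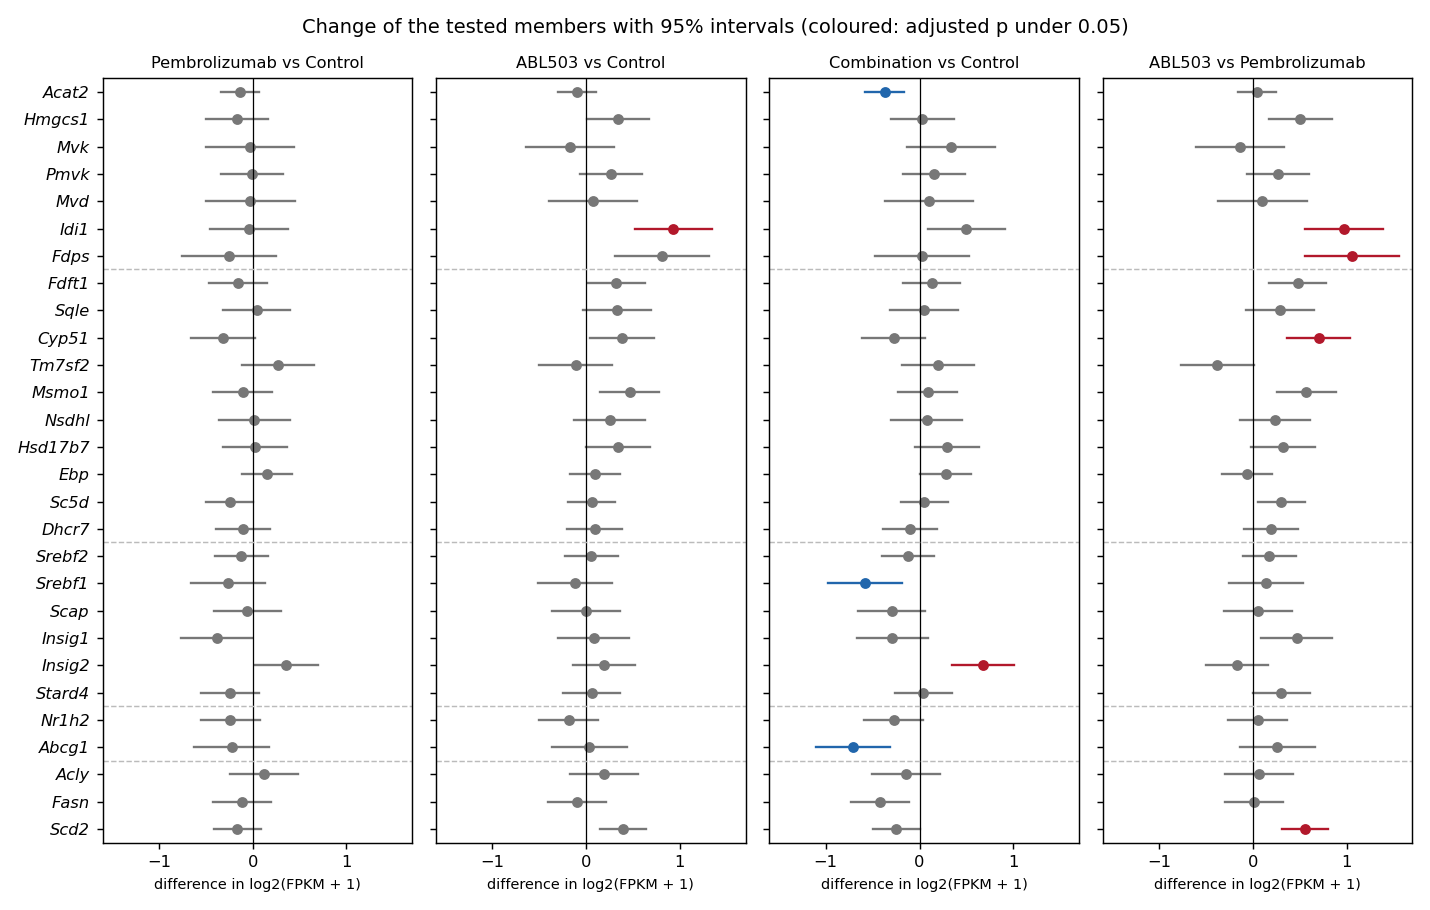
Difference in log2(FPKM + 1) with its 95% interval (x axis) for the 28 tested members (y axis, dashed lines between roles) in 4 comparisons; coloured points passed an adjusted p of 0.05, red higher and blue lower. No point is coloured for Pembrolizumab against Control, 1 for ABL503 against Control, 4 each in the other panels.

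Pembrolizumab was set against Control for the effect of PD-1 blockade by itself. None of the 28 members passed in limma's test, while 2.77% of all tested genes were called higher, 2.78% lower and 5.55% either way. An unadjusted p under 0.05 was found for 2 of 28 members and for 2383 of the 11794 genes tested. The 2 members were Insig1 (-0.38, SE 0.18, adjusted p = 0.238) and Insig2 (0.36, SE 0.16, adjusted p = 0.203), paralogues that both retain SCAP, and their estimates had opposite signs. Insig1 gave 14.0, 7.81, 10.2, 7.84 and 7.43 FPKM in Control and 8.02, 7.55, 5.63, 6.21 and 6.89 in Pembrolizumab, with groups that overlapped and Control 1 highest. None of the 28 tested members was free of overlap here, where 2.71% of all tested genes lay wholly above Control and 3.41% wholly below. For Idi1 the 95% interval of the difference was -0.46 to 0.37, and for Cyp51 -0.66 to 0.02. The 28 members had a median of -0.11, all genes tested one of -0.03, and each of the 7 early route genes lay below 0 (median -0.04). So did 6424 of the 11794 genes tested. Acaca, too low to test, was listed at 0.481 to 0.856 FPKM in Control and 0.311 to 0.455 in Pembrolizumab, which did not overlap.

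With both antibodies, set against Control, the members that passed were 2 regulators, an efflux pump and the first enzyme of the route. Insig2 rose, and Srebf1, Abcg1 and Acat2 fell. Of 28 members 1 was higher and 3 lower, or 4 in all, where 6.34% of all tested genes were called higher, 6.24% lower and 12.6% either way. The share of members called was close to that background. Among route enzymes no rise passed: Idi1 gave 0.50, SE 0.20, adjusted p = 0.103, Fdps 0.02, SE 0.24, adjusted p = 0.965 and Cyp51 -0.28, SE 0.16, adjusted p = 0.274.

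Insig2 (chr1:121304353-121332662), the INSIG gene that is not itself an SREBP target, gave 3.11, 4.37, 5.75, 6.50 and 4.67 FPKM in Control and 8.50, 8.38, 10.2, 6.89 and 7.36 in the Combination. Every Combination library lay above every Control library, with means of 4.88 ± 1.302 and 8.27 ± 1.29 (log2 change 0.68, SE 0.16, adjusted p = 0.00902). Pembrolizumab (6.47 ± 1.22) and ABL503 (5.65 ± 0.959) lay between. Neither single agent passed against Control (adjusted p = 0.203 and 0.695), and the interaction was 0.12, SE 0.23, adjusted p = 0.905. The rise passed under each alternative run, leaving out each of the 10 libraries included, with adjusted p up to 0.0455.

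Abcg1 (chr17:31057694-31117984), a sterol efflux pump induced by LXR, gave 3.45, 1.94, 2.33, 2.69 and 2.20 FPKM in Control and 1.96, 0.760, 1.59, 1.41 and 0.353 in the Combination. Combination 2 and 5 were lowest, and Combination 1 overlapped the lowest Control library (log2 change -0.71, SE 0.19, adjusted p = 0.0196). Srebf1 (chr11:60199084-60224186), whose shorter form is also an LXR target, gave 7.07, 5.12, 5.17, 6.44 and 5.19 in Control and 4.66, 3.14, 3.94, 3.82 and 2.34 in the Combination, without overlap (log2 change -0.58, SE 0.19, adjusted p = 0.0479). Nr1h2, which encodes LXR beta, gave -0.27, SE 0.15, adjusted p = 0.242. Abca1, the other LXR-induced pump, was listed at 0.386, 0.167, 0.153, 0.158 and 0.0360 in Control and 0.0622, 0, 0, 0 and 0 in the Combination, too low to test.

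Of the pathway genes outside the 32, Mylip (chr13:45389742-45411940), a ubiquitin ligase that degrades lipoprotein receptors and a known LXR target, gave 10.4, 8.02, 5.80, 4.72 and 5.53 FPKM in Control, 4.30, 3.97, 4.70, 5.51 and 6.34 in Pembrolizumab, 3.79, 5.43, 6.92, 5.16 and 6.55 after ABL503 and 2.97, 1.58, 4.44, 3.97 and 2.60 in the Combination. All Combination libraries were below all Control libraries, with means of 3.11 ± 1.13 and 6.90 ± 2.32 (log2 change -0.94, SE 0.21, adjusted p = 0.00631). This fall passed under every alternative run (adjusted p up to 0.036). Lpcat3, a phospholipid acyltransferase that is also a known LXR target, averaged 7.60 ± 1.96 in Control and 7.65 ± 1.16 in the Combination (0.03, SE 0.16, adjusted p = 0.924); it is named after its values were seen. No list of LXR targets was fixed or tested.

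Acat2 (chr17:12943042-12960725), the cytosolic thiolase that condenses acetyl-CoA, gave 11.8, 10.2, 11.1, 13.1 and 13.8 FPKM in Control and 8.94, 9.08, 10.2, 7.70 and 9.20 in the Combination. The highest Combination library lay just under the lowest Control library (log2 change -0.37, SE 0.10, adjusted p = 0.0169). Acat3, a close copy whose reads may be hard to tell from it, averaged 1.84 ± 0.515 in Control and 1.18 ± 0.320 in the Combination. Fasn gave 2.46, 2.55, 1.84, 1.94 and 1.62 in Control and 1.49, 1.18, 1.17, 1.44 and 1.14 in the Combination, with no overlap, and missed the threshold (log2 change -0.42, SE 0.15, adjusted p = 0.0635). In all, 1 member (Insig2) lay above Control without overlap and 3 (Acat2, Srebf1, Fasn) below, where 4.42% and 4.43% of all tested genes did.

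**Figure D4:**
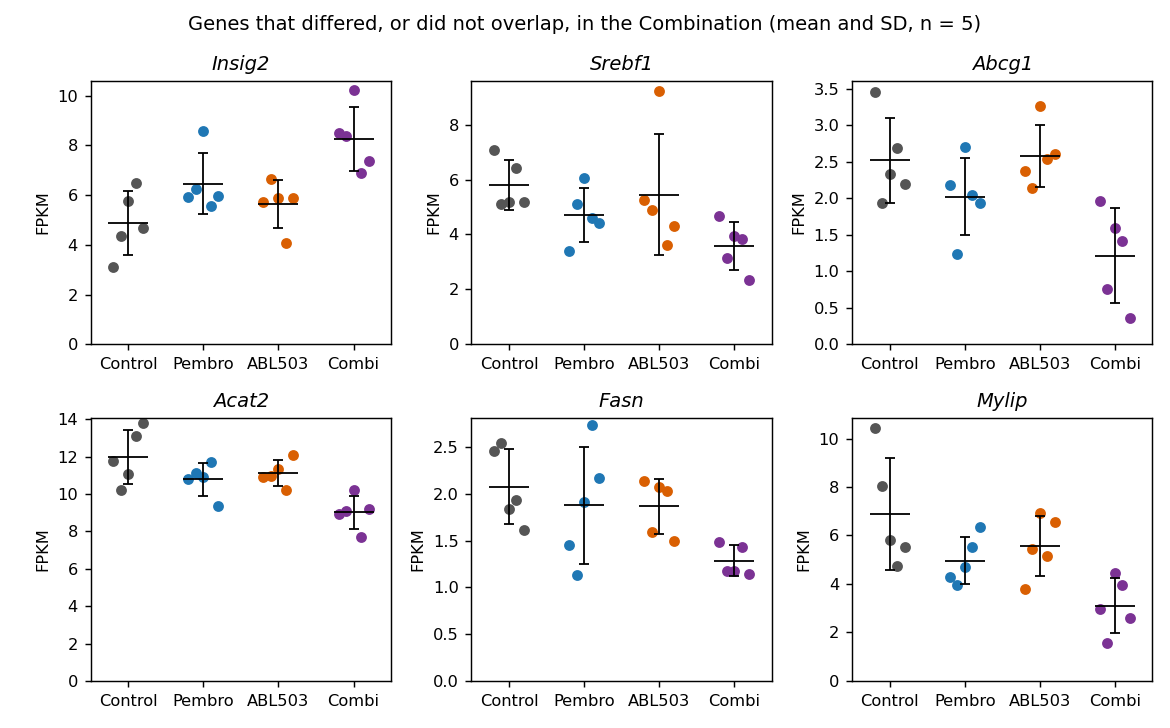
FPKM (y axis, from 0) of Insig2, Srebf1, Abcg1, Acat2, Fasn and Mylip in the 4 groups (x axis), 1 point per library with the mean and SD. Insig2 is highest in the Combination and the other 5 genes have their lowest group mean there.

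Against Control, the MHC class II genes and Epcam were lower and Zbtb46 and Ly6c2 higher in this group, as given above. Krt18 had a slightly higher mean here than in Control. Zbtb46 had a higher mean still after ABL503 alone, and Lyz2 had its lowest mean in the Combination, without a call. The part of these genes in the Combination calls was not tested gene by gene. The calls were fitted again with the mean level of the 18 macrophage, monocyte and antigen-presenting cell markers, Ly6c2 included, as a covariate. In that mean the rise of Ly6c2 and the fall of the MHC class II genes offset each other in part. Insig2 kept its call (0.72, adjusted p = 0.0455) and Mylip too (-1.10, adjusted p = 0.0216). Abcg1 (-0.67, adjusted p = 0.117), Srebf1 (-0.54, adjusted p = 0.2) and Acat2 (-0.38, adjusted p = 0.0875) kept their size and lost the call. Srebf1 also lost it without any 1 of 9 libraries, Control 1 to 5 and Combination 2 to 5 (adjusted p 0.0508 to 0.131), and Abcg1 without Control 1, Combination 2 or Combination 5 (0.0572 to 0.0578). Without Control 1 and ABL503 3 Srebf1 gave -0.52, adjusted p = 0.0501 and Abcg1 -0.62, adjusted p = 0.0557. Srebf1 lost its call as well without a filter (-0.58, adjusted p = 0.118), with quantile normalization (-0.53, adjusted p = 0.0506) and with array weights (-0.55, adjusted p = 0.0593). Abcg1 lost it without a filter (-0.71, adjusted p = 0.0502) and with the proliferation genes as covariate (-0.65, adjusted p = 0.0719). All 8 proliferation genes had estimates above 0 in the Combination against Control (median 0.33), with 0 called, where 45.8% of all genes tested lay above 0. Acat2 passed without each library in turn. With only the Control and Combination libraries fitted, Abcg1 gave -0.71, adjusted p = 0.0637 and Acat2 -0.37, adjusted p = 0.0696. The number of members called was 2 without Control 1, without Combination 2 and without Combination 5.

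The Combination was also the least uniform group for the sterol route. Combination 2 had the group's highest value in 12 of the 17 tested route enzymes, and its summed level of 339 FPKM stood beside 238, 231, 261 and 248 in Combination 1, 3, 4 and 5. Idi1 was 12.5, 22.4, 9.05, 14.3 and 19 FPKM in the 5 libraries and Fdps 24.3, 71.9, 29.9, 49.0 and 41.7. Combination 2 lay within the ABL503 range for both genes, and Combination 1 and 3 lay within or below the Control range. The same library had the highest summed level of the 8 proliferation genes in its group (203 FPKM, against 108 to 171). In Pembrolizumab, library 2 was highest on both sums (269 and 183). In Control, library 5 was highest on both (276 and 129.5), and in ABL503 different libraries were. The part of cell division in the level of the route was not tested.

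**Figure D5:**
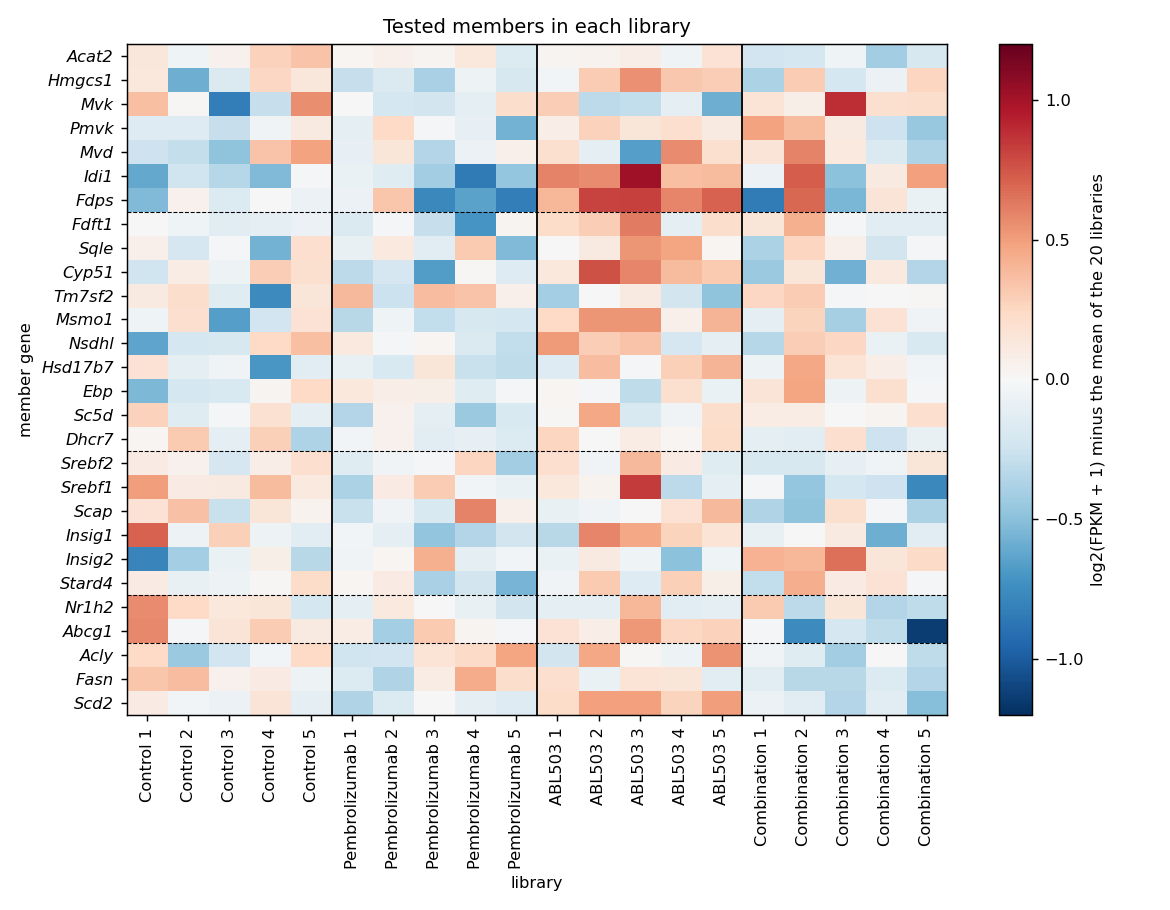
Level of the 28 tested members (rows, dashed lines between roles) in each of the 20 libraries (columns, solid lines between groups), as log2(FPKM + 1) minus the gene's mean over all libraries. Upper rows are mostly red in the 5 ABL503 columns and in Combination 2. The Fdps row is bluest in Control 1, Pembrolizumab 3 to 5 and Combination 1 and 3.

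The Combination against ABL503 asked what adding pembrolizumab to the bispecific antibody changed. In this comparison 3 members were lower and 0 higher of 28, where 2.24% of all tested genes were called lower, 2.29% higher and 4.53% either way. Scd2 gave 3.08, 2.89, 2.37, 2.90 and 2.001 FPKM in the Combination, all below the ABL503 libraries (log2 change -0.64, SE 0.12, adjusted p = 0.00477). Cyp51 gave 9.004, 14.1, 8.12, 13.8 and 9.66 (log2 change -0.66, SE 0.16, adjusted p = 0.0243). Combination 2 lay just above the lowest ABL503 library, ABL503 1, and the other 4 below it. Abcg1, at 2.37, 2.14, 3.27, 2.53 and 2.61 in ABL503, was above every Combination library (log2 change -0.74, SE 0.19, adjusted p = 0.0292). The fall of Scd2 passed under every alternative run (adjusted p up to 0.028).

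Cyp51 lost its call in this comparison without ABL503 2, ABL503 3 or Combination 1, 3 or 5 (adjusted p 0.0567 to 0.0738), and Abcg1 without ABL503 3, 4 or 5 or Combination 2 or 5 (0.0578 to 0.0811). Without Control 1 and ABL503 3 they gave -0.62, adjusted p = 0.051 and -0.68, adjusted p = 0.0648, and with the marker covariate -0.70, adjusted p = 0.0762 and -0.71, adjusted p = 0.137. Without the filter they gave -0.66, adjusted p = 0.0656 and -0.74, adjusted p = 0.0763, and with the 2 groups alone -0.66, adjusted p = 0.0536 and -0.74, adjusted p = 0.0719. With the proliferation covariate Abcg1 gave -0.70, adjusted p = 0.0658. Only Scd2 was called without ABL503 3 and without Combination 5. Fdps gave -0.79, SE 0.24, adjusted p = 0.0644, and Insig2, with the opposite sign, 0.48, SE 0.16, adjusted p = 0.0837. Without overlap, 1 member was higher (Insig2) and 3 lower (Abcg1, Fasn, Scd2), where 3.19% and 2.74% of all tested genes were. Fasn gave -0.33, SE 0.15, adjusted p = 0.217. Of the 28 members 23 had a negative estimate, as did 6337 of the 11794 genes tested. The medians were -0.23 for the members and -0.03 for all genes tested.

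Against Pembrolizumab, the Combination differed in no member by limma's test, where 0.0678% of all tested genes were called higher, 0.0933% lower and 0.161% either way. None of the 28 tested members was free of overlap, where 1.59% of all tested genes lay wholly above and 1.17% wholly below. An unadjusted p under 0.05 was found for 1552 of the 11794 genes and for 5 members: Idi1 (0.54, SE 0.20, adjusted p = 0.242), Sc5d (0.29, SE 0.12, adjusted p = 0.3), Abcg1 (-0.48, SE 0.19, adjusted p = 0.281), Acat2 (-0.23, SE 0.10, adjusted p = 0.307) and Fasn (-0.31, SE 0.15, adjusted p = 0.374). The interaction asks whether pembrolizumab changed a gene differently with ABL503 present, and 0 of 28 members passed it, where 0.203% of all tested genes did, 0.0424% higher and 0.161% lower. An unadjusted p under 0.05 was found for 1210 of the 11794 genes and 1 member, Scd2 (-0.47, SE 0.17, adjusted p = 0.29, 95% interval -0.82 to -0.12). Its group means were 3.31 ± 0.353 FPKM in Control, 2.85 ± 0.340 in Pembrolizumab, 4.65 ± 0.540 after ABL503 and 2.65 ± 0.449 in the Combination.

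Among the fatty acid genes Acly gave 13.2 ± 2.87 FPKM in Control, 14.53 ± 3.30 in Pembrolizumab, 15.3 ± 3.85 after ABL503 and 11.8 ± 1.54 in the Combination, and passed in 0 comparisons. Its libraries overlapped between all groups. Fasn gave 1.45, 1.13, 1.91, 2.74 and 2.17 in Pembrolizumab and 2.14, 1.60, 2.07, 2.03 and 1.499 in ABL503, and Acaca averaged 0.705 ± 0.168, 0.405 ± 0.0568, 0.608 ± 0.159 and 0.389 ± 0.130 in Control, Pembrolizumab, ABL503 and the Combination. Srebf1 gave 3.39, 5.10, 6.04, 4.60 and 4.42 in Pembrolizumab and 5.25, 4.88, 9.25, 3.61 and 4.30 in ABL503, where ABL503 3 was far above the rest. Srebf2 gave 4.36, 4.17, 3.35, 4.29 and 4.77 in Control and 4.76, 3.85, 5.56, 4.37 and 3.51 in ABL503. It gave 3.52, 3.87, 3.94, 4.97 and 2.76 in Pembrolizumab and 3.39, 3.39, 3.68, 3.85 and 4.53 in the Combination, with overlap between all groups, and passed in 0 comparisons. Insig1 gave 6.29, 12.8, 11.7, 10.0 and 9.33 in ABL503 and 7.63, 8.16, 8.93, 5.13 and 7.34 in the Combination (-0.37, SE 0.18, adjusted p = 0.253), and ABL503 1 lay within the Combination's range. Scd1 was listed above 0 in 1 Control library, 2 Pembrolizumab, 3 ABL503 and 3 Combination libraries, at up to 0.350. Abca1 was listed at 0, 0.0397, 0.0329, 0.0117 and 0.0761 in Pembrolizumab and 0.133, 0.0991, 0.0521, 0.0122 and 0.0558 in ABL503.

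The remaining route enzymes passed in 0 comparisons. Ebp ran from 33.1 to 67.7 FPKM and Sc5d from 19.3 to 37.1, both spread over groups that overlapped. Mvk, mevalonate kinase (1.04 to 5.71), Mvd, its decarboxylase (1.68 to 5.36), the reductases Tm7sf2 (0.408 to 2.14) and Dhcr7 (0.705 to 1.73), and Hsd17b7 (1.38 to 4.34) were low. On the log2(FPKM + 1) scale the SE of a difference between groups was 0.23 for Mvk and 0.16 for Hsd17b7. Squalene epoxidase, Sqle, averaged 6.89 ± 1.52 in Control and 8.90 ± 1.79 in ABL503 (0.33, SE 0.17, adjusted p = 0.5). Fdft1 averaged 12.1 ± 0.474 and 15.6 ± 3.03 (0.32, SE 0.15, adjusted p = 0.418). Against Control, estimates over the 3 treated groups ran from 0.02 to 0.25 for the sterol dehydrogenase Nsdhl, from -0.01 to 0.26 for Pmvk, from -0.30 to -0.0014 for Scap and from -0.24 to 0.06 for the sterol carrier Stard4.

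Other genes of the pathway were counted from a list of 27, of which 21 were tested. For sterol handling 11 of 13 were tested: 0 passed for Pembrolizumab or ABL503 against Control, and for the Combination 0 were higher and 2 lower. The 2 were Mylip and Mbtps1, the Golgi protease that makes the first cut in SREBP, which fell (log2 change -0.45, SE 0.12, adjusted p = 0.0177), with a mean of 13.9 ± 0.611 FPKM in Control and 10.0 ± 1.66 in the Combination. For fatty acids 10 of 14 were tested, and 1 was higher for the Combination, Tecr, a reductase of very long chain elongation. Over all tested genes 6.34% were higher and 6.24% lower in that comparison. It rose from 157 ± 17.99 FPKM in Control to 202 ± 19.9 in the Combination (log2 change 0.36, SE 0.09, adjusted p = 0.0152). The call on Mbtps1 ended without Combination 2 (-0.38, adjusted p = 0.0573) and with the marker covariate (-0.46, adjusted p = 0.0824), that on Tecr with the marker covariate (0.36, adjusted p = 0.0896) and with the proliferation covariate (0.32, adjusted p = 0.0657). After ABL503 the 11 sterol genes had a median change of 0.23, with 7 above 0, where 48.6% of all genes tested were.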

How the data were processed

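CD8+ T cells sorted from tumours were profiled as 20 libraries in 4 groups of 5, with RNA and libraries made by the SMART-Seq v4 kit according to the labels' protocols. The tools named in the submitters' processing notes are HISAT2 and StringTie, and the build is GRCm38 (mm10). Versions, annotation and strand setting are not given in the sources used here. The deposited table holds 1 value per gene and library, read here as FPKM from the values and tools. The depth of the libraries is unknown, and intervals that need it are left out. Values were analysed as log2(FPKM + 1), so changes of low genes are understated. A gene was tested if 5 or more libraries reached 1 FPKM, which left 11794 of 45777. The linear model (limma 3.58.1, R 4.3.3) had a mean for each group, all 20 libraries and 16 residual degrees of freedom, with variances moderated along an intensity trend. The 7 comparisons were the 6 pairs of groups and their interaction (the Combination's difference from ABL503, less that of Pembrolizumab from Control), two-sided, with Benjamini-Hochberg adjustment over all tested genes and a threshold of 0.05. The steps were run on simulated data as a check of the code, which says nothing of the calls on members. Summaries and plots used Python 3.11.15, pandas 2.3.3 and matplotlib 3.10.9.

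The members, lists, motifs and tests were chosen with earlier results of these data known. Every member is accounted for, with each library's value for members past the threshold and for fixed regulators (Srebf1, Srebf2, Insig1, Abca1, Abcg1, Scd1, Scd2, Fasn), in part as ranges. Of other pathway genes at most 6 were to be named, by smallest adjusted p against Control, and the 3 that passed are. Alternatives were quantile normalization, a pseudocount of 0.1, testing without a filter, equal column sums, library weights, blocking on replicate number, fitting 2 groups alone, covariates for other-cell markers or proliferation genes, and leaving out each library or the pair with the lowest weights. The alternatives for Mylip, Mbtps1 and Tecr were added after the data were seen. Gene positions and promoters are RefSeq's for GRCm38.p6.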

Additional observations from a re-analysis of the deposited data

Results flagged for a closer look

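Among the 112 gene and group combinations of the 28 tested members, 3 values lay far from the other 4 libraries of their group, by the gap to the nearest library divided by the group's range on the log2(FPKM + 1) scale. About 1 in 20 groups is picked out this way by chance. Mvk stood at 5.71 FPKM in Combination 3, with the next library at 3.20. Insig2 stood at 8.60 in Pembrolizumab 3, with the next at 6.24. Nr1h2 stood at 24.1 in ABL503 3, with the next at 16.7. No member passed the interaction test.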

How the results depend on the processing

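Of the 12 calls on members, none reversed under the 240 alternative values, 154 of which passed and 86 did not. The calls on Insig2 (Combination against Control) and Scd2 (Combination against ABL503) passed throughout. Counts of members called moved most for ABL503 against Pembrolizumab (4), with 1 without a filter and 0 without the lowest-weight pair of libraries. For ABL503 against Control (1) they were 0 without a filter, 0 without that pair and 2 with only the groups compared. For the Combination against ABL503 (3) they were 1 without a filter, 5 with array weights, 1 with the other-cell covariate, 1 without the pair and 1 with only the groups compared. For the Combination against Control (4) they were 1 with the other-cell covariate, 2 without the pair and 2 with only the groups compared. Leaving out 1 library gave 0 to 4 for ABL503 against Pembrolizumab, 0 to 1 for ABL503 against Control, 1 to 3 for the Combination against ABL503 and 2 to 4 for the Combination against Control. The other 3 comparisons kept 0 members in every alternative run. Over all genes, calls ranged from 37 to 87 for ABL503 against Control, from 54 to 301 for ABL503 against Pembrolizumab, from 226 to 935 for the Combination against ABL503 and from 712 to 1659 for the Combination against Control. For the other 3 they ranged from 321 to 707 (Pembrolizumab against Control), 3 to 85 (Combination against Pembrolizumab) and 6 to 50 (interaction). The cause of these shifts was not tested.

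Same-numbered libraries did not deviate together: over 30 pairs the median correlation of deviations from group means was 0.026 (-0.146 to 0.107), and 5 of 20 libraries correlated best with their own number. With the replicate block, members called were 1 for ABL503 against Control, 4 for ABL503 against Pembrolizumab, 4 for the Combination against ABL503, 4 for the Combination against Control and 0 in the other 3 comparisons, and the block ended 1 call, Scd2 in ABL503 against Pembrolizumab. FPKM are not counts, so no count model was fitted, and the unknown depth limits what can be said of genes under 1 FPKM.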
